A study of Arabidopsis thaliana with 24 samples.

Results

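PDC2 and AT1G19530 are 2 Arabidopsis thaliana genes linked to life with little oxygen. They were picked because their signals differed in opposite directions between the nph4-1 arf19-1 double mutant and wild-type Columbia (Col) in seedlings that had received no auxin. They are 2 of the 13350 genes to which the array annotation assigns at least 1 probe set. Each has 1 probe set, 248138_at for PDC2 (locus AT5G54960) and 260668_at for AT1G19530. Because the comparison of the double mutant with Col without auxin chose both genes, their values in that comparison, and in all others that use those arrays, are given as descriptions without a test. PDC2 and AT1G19530 were tested in comparisons between the means of other arrays. The estimate of the spread behind those tests still uses all arrays, those that chose the genes included.

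The arrays measured total RNA of whole seedlings kept for 7 days in shaken liquid medium with 1.5% sucrose under a day of 16 h light and 8 h dark. The 4 genotypes were Col, nph4-1, arf19-1 and nph4-1 arf19-1, all in the Columbia background. The nph4-1 allele affects ARF7 and arf19-1 affects ARF19, a pair of related transcription factors that switch on genes in response to auxin. Each genotype was treated at 24 °C for 2 h with the natural auxin indole-3-acetic acid (IAA) at 5 µM, or with ethanol as the control, which makes 8 groups of 3 arrays. Each gene is represented by 1 mutant allele, and since the labels leave unsaid whether replicate arrays came from separate cultures, the spread behind the p-values may be technical.

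When oxygen is scarce, plant mitochondria can no longer reoxidise all the NADH that glycolysis makes, and cells turn to fermentation. Pyruvate decarboxylase, the enzyme that PDC2 encodes, takes the first step of ethanol fermentation by splitting pyruvate into acetaldehyde and carbon dioxide, and alcohol dehydrogenase then reduces the acetaldehyde to ethanol. Low oxygen also stabilises a group of ERF transcription factors that raise a set of transcripts in many cell types. AT1G19530 belongs to that set, and its protein has no well-established function.

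Values are log2 signals with a floor of 5.64, which is 50 in linear units. Array medians ran from 6.645 to 6.758, the share of values at the floor ran from 35.6% to 36.7%, and the highest signal of an array was at least 13.23. Both probe sets lay above the floor on all 24 arrays. Array quality weights were lowest for nph4-1 IAA 1 (0.14) and Col control 3 (0.19), both of which differed from the other arrays of their groups. Where either array entered a comparison of PDC2 or AT1G19530 and moved it by over 1.5 times, the value without that array is given too. Of 10 leaf and green tissue markers none had a named probe set, so green tissue was not checked. Of 9 root markers 3 had one, and none of the 3 lay at the floor on any array.

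AT1G19530 had its highest signals in Col and its lowest in the double mutant, with both single mutants in between. Without IAA its log2 signal was 8.92, 9.00 and 8.68 on the 3 Col arrays, a mean of 8.86 (SD 0.16, n = 3). It was 7.81, 8.55 and 8.20 in arf19-1 (mean 8.19, SD 0.37) and 8.14, 7.68 and 7.19 in nph4-1 (mean 7.67, SD 0.48). In the double mutant it was 6.84, 5.67 and 5.86 (mean 6.12, SD 0.63). The arrays of Col lay above those of every mutant, those of the single mutants overlapped each other, and those of the double mutant lay below all others. On 2 double-mutant arrays the signal came close to the floor, which limits how far it could be seen to go down.

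With IAA the order of the genotypes was the same for AT1G19530. The log2 signal was 9.69, 9.61 and 9.07 in Col (mean 9.46, SD 0.34) and 9.38, 9.01 and 8.33 in arf19-1 (mean 8.90, SD 0.53). It was 8.72, 7.76 and 7.64 in nph4-1 (mean 8.04, SD 0.59) and 7.06, 6.35 and 6.35 in the double mutant (mean 6.59, SD 0.41). The arrays of Col overlapped those of arf19-1 and lay above those of nph4-1, and the double mutant again lay below all others. Across the 8 group means the gene spanned 3.33 log2 units, or 10.09-fold.

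PDC2 ran the other way, with its lowest signals in Col and its highest in the double mutant. Without IAA its log2 signal was 9.37, 9.89 and 8.53 on the Col arrays (mean 9.26, SD 0.69). It was 10.08, 9.96 and 10.37 in arf19-1 (mean 10.14, SD 0.21), 10.38, 10.27 and 10.47 in nph4-1 (mean 10.38, SD 0.10) and 10.44, 10.60 and 10.85 in the double mutant (mean 10.63, SD 0.21). Every mutant array lay above every Col array, but the Col arrays spread far more than those of any mutant, and the lowest of them was Col control 3.

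With IAA the single mutants no longer stood apart from Col for PDC2. The log2 signal was 9.86, 10.44 and 9.44 in Col (mean 9.92, SD 0.50), 10.28, 10.09 and 10.04 in arf19-1 (mean 10.14, SD 0.13) and 9.20, 10.46 and 10.30 in nph4-1 (mean 9.99, SD 0.69). In the double mutant it was 10.78, 11.03 and 10.95 (mean 10.92, SD 0.13). The double mutant lay above the other 3 genotypes on all arrays with IAA, and the other 3 overlapped one another. In nph4-1 the array nph4-1 IAA 1 lay more than 1 log2 unit below its replicates. For both genes that array fell within the range of the Col arrays without IAA. Across the 8 group means PDC2 spanned 1.66 log2 units, or 3.16-fold.

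**Figure D1:**
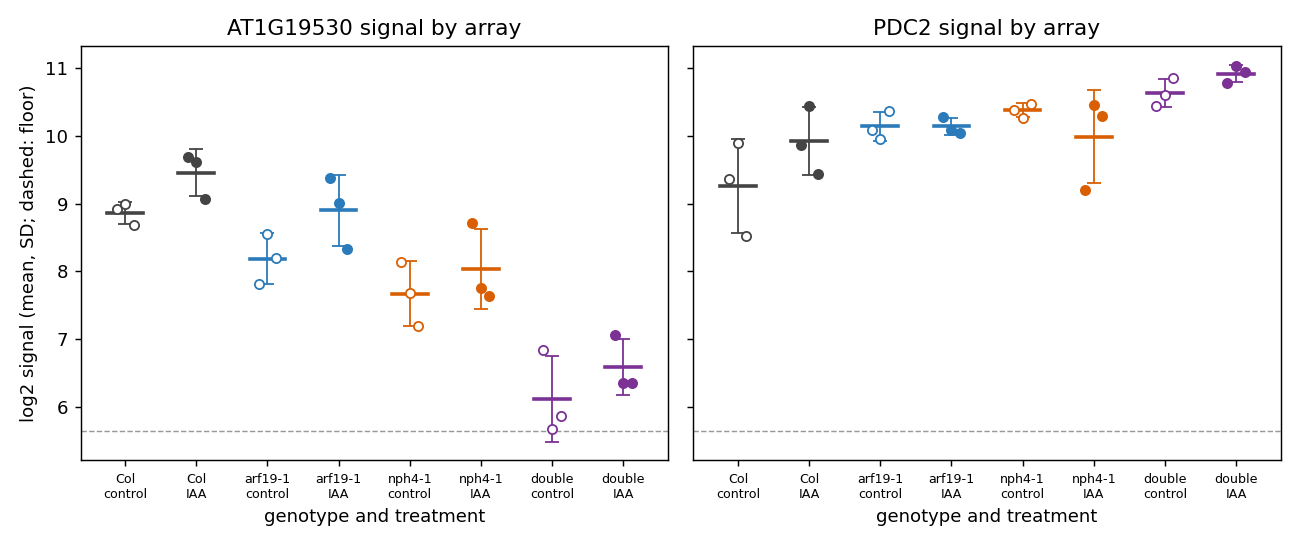
Log2 signal of AT1G19530 (left) and PDC2 (right) on each of the 24 arrays, by genotype and treatment; open circles are control arrays, filled circles IAA arrays, horizontal bars means of 3 arrays, whiskers the SD and the dashed line the floor. AT1G19530 goes from a mean of 9.46 in Col with IAA to 6.12 in the double mutant without it, while PDC2 goes from 9.26 in Col without IAA to 10.92 in the double mutant with it.

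Ordered by level, the groups of PDC2 form a series without a gap: each group overlapped the next one in the order, from the double mutant with IAA through the double mutant, nph4-1 and arf19-1 without IAA, then arf19-1, nph4-1 and Col with IAA, to Col without IAA. The order of AT1G19530 has 2 breaks between neighbours, of which only the second separates all groups above it from all below. Col with IAA, arf19-1 with IAA and Col without IAA came first, with overlapping neighbours. The arrays of the next group, arf19-1 without IAA, did not reach those of Col without IAA, and nph4-1 with and without IAA followed without a gap. Across this first break arf19-1 without IAA still overlapped arf19-1 with IAA, and nph4-1 with IAA overlapped Col without IAA. The double mutant, with IAA and then without it, came after a second break of 1.08 log2 units between the group means.

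In the comparison that chose the genes, the double mutant without IAA against Col without IAA, the log2 difference was -2.74 (SE 0.34, n = 3 per group) for AT1G19530, a signal 6.69-fold lower. Of the 15757 probe sets tested, 1 had a lower value. For PDC2 the log2 difference was 1.37 (SE 0.30), or 2.58-fold higher, and 45 probe sets had a higher value. Adjusted p-values under 0.05 in limma were reached by 13.3% of probe sets in this comparison, from which nothing is read for genes chosen by it. Without Col control 3 the values were -2.83 for AT1G19530 and 1.00 for PDC2.

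The single mutants without IAA were compared with the same Col control arrays and are likewise described only. The log2 difference of AT1G19530 was -1.20 (SE 0.34) for nph4-1 and -0.68 (SE 0.34) for arf19-1. That of PDC2 was 1.11 (SE 0.30) for nph4-1, or 0.75 without Col control 3, and 0.88 (SE 0.30) for arf19-1, or 0.51 without it. In the double mutant PDC2 lay 0.25 (SE 0.30) above nph4-1 and 0.49 (SE 0.30) above arf19-1, and AT1G19530 had log2 differences of -1.55 (SE 0.34) from nph4-1 and -2.07 (SE 0.34) from arf19-1.

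The comparison of the same genotypes with IAA used other arrays and asked whether the difference was also present there. AT1G19530 was 7.31-fold lower in the double mutant than in Col with IAA, a log2 difference of -2.87 (SE 0.34, 95% interval -3.57 to -2.17, adjusted p = 1.5e-06 in limma). PDC2 was 2.01-fold higher, a log2 difference of 1.01 (SE 0.30, 95% interval 0.38 to 1.63, adjusted p = 0.02 in limma). Both genes passed, where 19.9% of all probe sets tested did, 10.6% as higher and 9.37% as lower. The call of AT1G19530 held in all 32 alternatives of the processing, and 27 probe sets of the 15757 had a lower value. That of PDC2, for which 247 probe sets had a higher value, ended without Col IAA 3 (log2 0.77, adjusted p = 0.13), without Col IAA 1 (0.98, adjusted p = 0.052) and without double-mutant IAA 2 (0.95, adjusted p = 0.07) or 3 (0.99, adjusted p = 0.06).

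These are whole seedlings, in which fewer cells of a type and less RNA per cell cannot be told apart. Root markers moved in both directions between the double mutant and Col with IAA. EXPA7, an expansin of root hairs, had a log2 difference of -1.03 (SE 0.19, adjusted p = 0.00039), the transporter gene AT3G45710 one of 0.72 (SE 0.21, adjusted p = 0.017), and PYK10, an abundant root beta-glucosidase, one of 0.20 (SE 0.08, adjusted p = 0.078), all from limma. The call of AT3G45710 ended without Col IAA 1 (0.67, adjusted p = 0.054) or 3 (0.63, adjusted p = 0.079) and without double-mutant IAA 3 (0.69, adjusted p = 0.059). Without IAA the values were -0.64 (SE 0.19, adjusted p = 0.031 in limma) for EXPA7 and 0.78 (SE 0.21, adjusted p = 0.015 in limma) for AT3G45710. The log2 of the summed signal of the 3 markers lay between 12.74 and 13.06 on the Col arrays with IAA and between 13.09 and 13.15 on those of the double mutant. On control arrays it lay between 12.79 and 13.01 in Col and between 12.97 and 13.11 in the double mutant. The sum is of linear signals and is mostly PYK10, so it hardly registers the other markers. In Col with IAA the mean log2 signal was 12.74 for PYK10, 9.12 for AT3G45710 and 7.59 for EXPA7. The part of root markers in the differences of AT1G19530 and PDC2 was not tested.

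With IAA, AT1G19530 was lower in nph4-1 alone as well. Its signal was 2.67-fold lower than in Col, a log2 difference of -1.42 (SE 0.34, adjusted p = 0.0059 in limma), in a comparison in which 14% of probe sets passed, 8.35% as higher and 5.68% as lower. Without nph4-1 IAA 1 the difference was larger, -1.76. In arf19-1 the log2 difference was -0.55 (95% interval -1.25 to 0.15) and did not pass (adjusted p = 0.49 in limma), where 1.56% of probe sets passed. Between the single mutants without IAA, nph4-1 minus arf19-1 gave -0.52 (95% interval -1.22 to 0.18, adjusted p = 1 in limma; 0.14% of probe sets passed), so an order of the single mutants was not shown.

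AT1G19530 was also lower in the double mutant than in each single mutant. The log2 difference from arf19-1 with IAA was -2.32 (SE 0.34, adjusted p = 3.3e-05 in limma), 4.99-fold, with 15.4% of probe sets called. The difference from nph4-1 with IAA was -1.45 (SE 0.34, adjusted p = 0.018 in limma), 2.74-fold, with 2.86% called. The latter rests in part on nph4-1 IAA 1, whose signal of 8.72 was the highest of its group. Without that array the value was -1.11 (adjusted p = 0.12), and the call also ended without double-mutant IAA 2 (-1.34, adjusted p = 0.1) or 3 (-1.34, adjusted p = 0.092). A fit restricted to these 6 arrays gave -1.45 (adjusted p = 0.12), and over all alternatives the adjusted p ran from 0.0017 to 0.12.

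PDC2 did not differ between the single mutants and Col with IAA at the threshold. The log2 difference was 0.07 for nph4-1 (95% interval -0.55 to 0.69, adjusted p = 0.94 in limma) and 0.22 for arf19-1 (95% interval -0.40 to 0.84, adjusted p = 0.82 in limma), intervals that still hold changes of over 0.6 log2 units. Without nph4-1 IAA 1 the value for nph4-1 was 0.46 (adjusted p = 0.33), and without Col IAA 3 it was -0.17 (adjusted p = 0.86). The double mutant had log2 differences of 0.94 from nph4-1 (SE 0.30, adjusted p = 0.12 in limma) and 0.79 from arf19-1 (SE 0.30, adjusted p = 0.086 in limma), neither of which passed. The difference from arf19-1 passed without nph4-1 IAA 1 (0.79, adjusted p = 0.029), without Col control 3 (0.79, adjusted p = 0.04) and when only these 6 arrays were fitted (0.79, adjusted p = 0.00036); over all alternatives the adjusted p ran from 0.00036 to 0.21. The difference from nph4-1 passed without Col control 3 (0.94, adjusted p = 0.048) and was 0.54 (adjusted p = 0.55) without nph4-1 IAA 1.

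**Figure D2:**
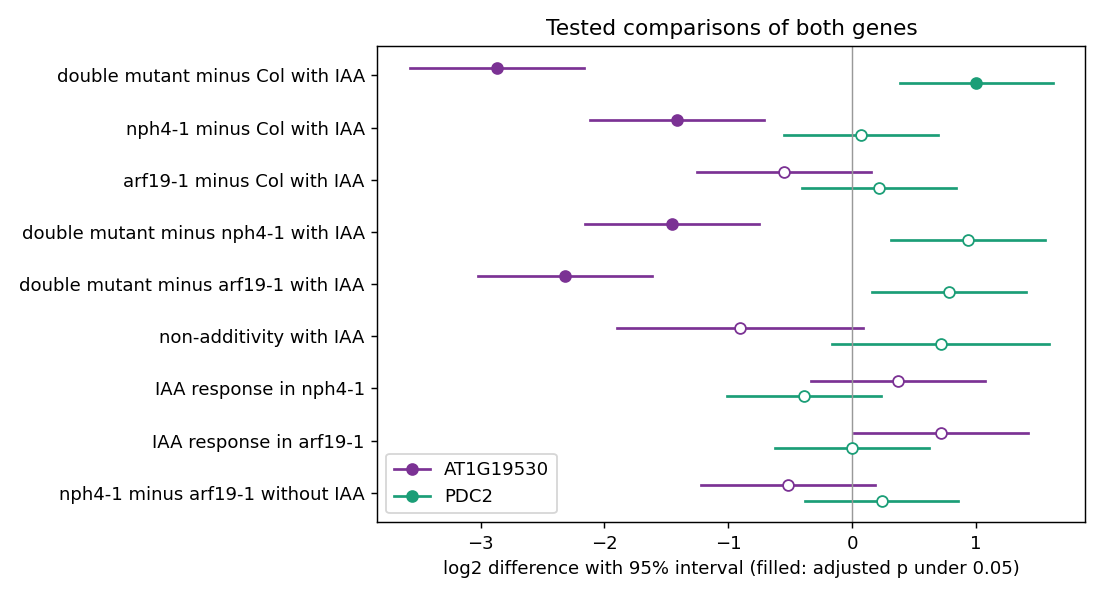
Log2 differences of AT1G19530 (purple) and PDC2 (green) in the 9 tested comparisons, with the 95% interval from limma as a line; filled circles have an adjusted p under 0.05. AT1G19530 is filled in 4 comparisons, all with negative values down to -2.87, and PDC2 in 1, at 1.01.

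Whether both mutations together did more than the sum of each was asked with the non-additivity, which takes the log2 signals of both single mutants from the sum of the double mutant and Col. With IAA it was -0.90 (95% interval -1.90 to 0.09, adjusted p = 0.44 in limma) for AT1G19530 and 0.72 (95% interval -0.16 to 1.59, adjusted p = 0.51 in limma) for PDC2, and 2.31% of probe sets passed. Neither gene passed, and the intervals hold additivity as well as changes of over 1.5 log2 units. Without nph4-1 IAA 1 the values were -0.56 (adjusted p = 0.61) for AT1G19530 and 0.32 (adjusted p = 0.74) for PDC2. Without IAA the values, given without a test, were -0.87 (SE 0.48) for AT1G19530 and -0.62 (SE 0.42) for PDC2, and -0.78 and -0.26 without Col control 3.

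IAA itself moved neither gene past the threshold in the genotypes where it was tested. For AT1G19530 the log2 response was 0.37 in nph4-1 (95% interval -0.33 to 1.07, adjusted p = 0.69 in limma) and 0.72 in arf19-1 (95% interval 0.02 to 1.42, adjusted p = 0.26 in limma). In these responses 2.52% and 10.1% of probe sets passed. In Col and the double mutant, described without a test, it was 0.59 (SE 0.34) and 0.46 (SE 0.34). All 4 values were above 0, and in Col alone did all IAA arrays lie above all control arrays. The value of nph4-1 was 0.03 without nph4-1 IAA 1. The response of the double mutant minus that of Col was -0.13 (SE 0.48), or -0.04 without Col control 3, and ran from -0.36 to 0.23 when single arrays were left out, the highest without double-mutant control 1.

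For PDC2 the log2 response to IAA was -0.39 in nph4-1 (95% interval -1.01 to 0.23, adjusted p = 0.62 in limma) and 0.00 in arf19-1 (95% interval -0.62 to 0.62, adjusted p = 1 in limma). Without nph4-1 IAA 1 the value of nph4-1 was 0.00. In Col the response was 0.65 (SE 0.30) and in the double mutant 0.29 (SE 0.30), both given without a test, and the arrays of the treatments overlapped in each genotype. Without Col control 3 the response of Col was 0.29, and the double mutant's response minus that of Col went from -0.36 (SE 0.42) to 0.01.

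Set against each other array by array, the genes run in opposite directions. Over the 24 arrays Pearson's r of the log2 signals of PDC2 and AT1G19530 was -0.64, and over the 8 group means it was -0.79. Without Col control 3 and nph4-1 IAA 1 it was -0.74 over the remaining 22 arrays. The genes were chosen for opposite differences between a pair of these groups, so a negative value was built in. Over the deviations of the arrays from their group means r was -0.19, and a relation within groups was not shown. The arrays share their preparation and scaling, and no p is given.

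**Figure D3:**
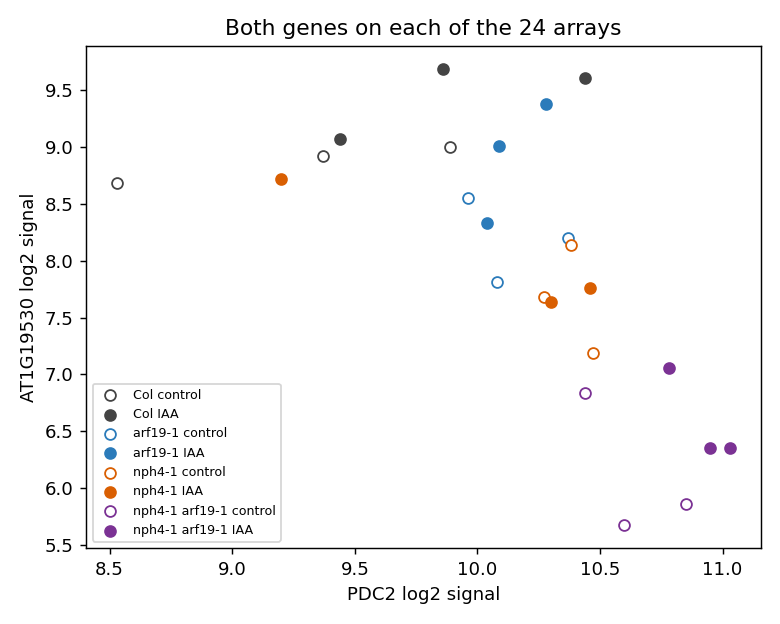
Log2 signal of AT1G19530 against that of PDC2 on the 24 arrays, coloured by genotype, with filled circles for IAA. The double mutant takes the lower right corner, with AT1G19530 between 5.67 and 7.06 and PDC2 between 10.44 and 11.03. Col lies higher, with AT1G19530 between 8.68 and 9.69, but spreads over PDC2 from 8.53 to 10.44. On the PDC2 axis Col therefore meets the double mutant and overlaps the single mutants.

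The genes whose signal followed AT1G19530 most closely were taken from the 575 other named probe sets whose group means span at least 1 log2 unit. The likeness is Pearson's r over the 24 arrays, and no test is given since these profiles share the arrays that chose the member. The closest was AT3G15450, a transcript known to rise when plant tissue runs short of sugar (r = 0.93), with group means of 11.17 in Col and 9.56 in the double mutant without IAA, and 11.38 and 9.65 with it. STR18, which encodes a sulfurtransferase, had r = 0.90, with 8.21 and 7.52 without IAA and 8.74 and 7.57 with it. AT5G02550 followed with r = 0.90, with 6.89 in Col and 5.78 in the double mutant without IAA, and 7.35 and 5.67 with it. In the double mutant it lay at the floor on 1 of 3 arrays without IAA and 2 of 3 with it, which limits the size of its fall.

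AT5G05880 (r = 0.89) lay at the floor on all 6 double-mutant arrays, from 6.46 in Col without IAA and 6.99 with it. AT5G43520 (r = 0.89) had 7.93 in Col and 6.82 in the double mutant without IAA. All 5 genes had their lowest group mean in the double mutant. The 5 were picked by r over these same arrays, so a profile like that of AT1G19530 was built in. Like AT1G19530, all 5 had a higher mean with IAA than without it in Col, nph4-1 and arf19-1, except that STR18 in nph4-1 had 7.95 with IAA against 7.98 without it once nph4-1 IAA 1 was left out. Without that array and Col control 3, r lay between 0.89 and 0.95 for the 5.

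Closest to PDC2 was HL, which encodes a phosphatase of the HAL2 type (r = 0.90). Its mean without IAA was 8.58 in Col, 9.34 in arf19-1, 9.55 in nph4-1 and 9.70 in the double mutant, and with IAA 8.77 in Col and 9.70 in the double mutant. As with PDC2, the lowest array of Col without IAA was Col control 3, at 7.83 against 8.79 and 9.11. NANA, a chloroplast aspartyl protease, had r = 0.89, with 7.19 in Col and 8.41 in the double mutant without IAA. The protein kinase gene AT1G48210 (r = 0.85), the efflux carrier gene AT5G52450 (r = 0.83) and UGT84A3, a glucosyltransferase of phenolic acids (r = 0.81), completed the list. In all 5 the lowest group mean was that of Col without IAA, and in all 5 Col control 3 was the lowest array of that group. These genes too were picked by r over the same arrays, so likeness to PDC2 was built in. Without Col control 3 the lowest mean was that of Col with IAA for HL (8.77 against 8.95 without IAA) and AT1G48210 (7.50 against 7.58), while PDC2 itself and the other 3 were still lowest in Col without IAA. Without both Col control 3 and nph4-1 IAA 1, r over 22 arrays was 0.83 for HL, 0.85 for NANA, 0.70 for AT1G48210, 0.85 for AT5G52450 and 0.74 for UGT84A3.

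**Figure D4:**
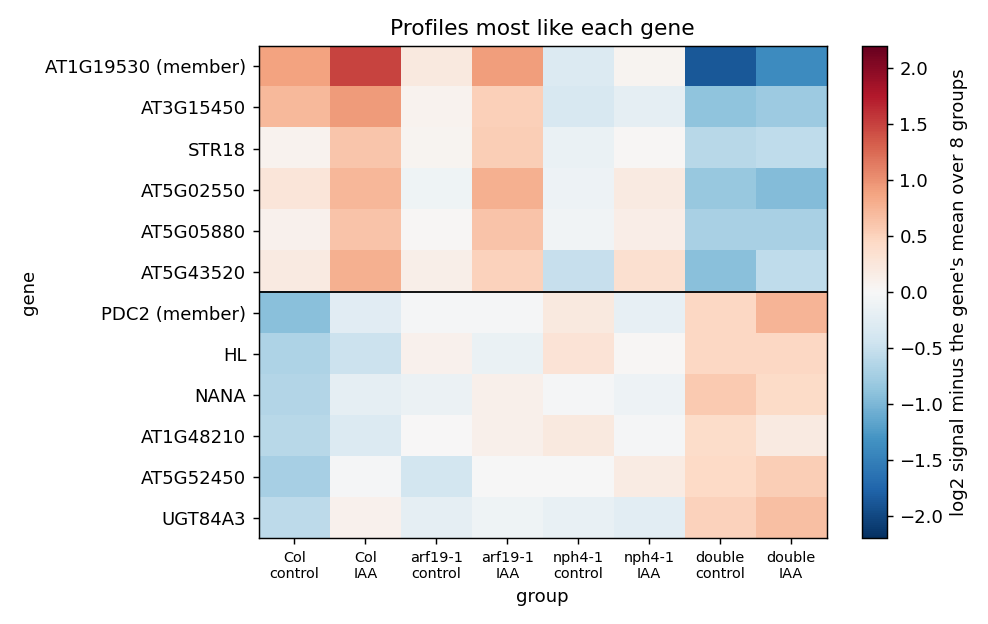
Group means of AT1G19530 and of the 5 named genes most like it (above the line), and of PDC2 and its 5 (below), as log2 signal minus each gene's mean over the 8 groups; red is above and blue below that mean. The upper block is bluest in the double mutant and reddest in Col or arf19-1 with IAA, and the lower block is bluest in Col without IAA, which for HL and AT1G48210 was so only with Col control 3 included.

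The next question was whether other genes of the low-oxygen response moved with either gene. Of 39 other transcripts listed as raised by low oxygen, 25 had a named probe set and 22 lay above the floor on at least 1 array and were tested. With IAA, 4 of the 22 were higher in the double mutant than in Col, 2 were lower and 16 did not pass, against 10.6% higher and 9.37% lower among all probe sets. The median log2 difference of the 22 was 0.39, beside 0.00 over all probe sets. In limma 13 of the 22 had an unadjusted p under 0.05, in either direction, where 31% of all probe sets did. With IAA the largest fall among the 22 was 1.53-fold, and that of AT1G19530 was 7.31-fold. Without IAA the largest was that of AT4G39675, 2.47-fold, beside 6.69-fold for AT1G19530. AT1G19530 was chosen for its difference between these genotypes without IAA, so its size and those of the 22 are not like for like.

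The 4 that were higher in the double mutant with IAA were AT1G74940 (log2 0.94, SE 0.17, adjusted p = 0.00031), AT5G42200 (0.70, SE 0.16, adjusted p = 0.0025), AT4G17670 (0.69, SE 0.20, adjusted p = 0.02) and CML38, a calmodulin-like protein (0.66, SE 0.23, adjusted p = 0.047), all from limma. AT1G74940 had 7.88, 8.34 and 7.54 in Col with IAA and 8.71, 8.75 and 9.11 in the double mutant. Without IAA it had 8.69, 8.69 and 8.80 in Col and 8.82, 8.67 and 8.97 in the double mutant, where the arrays of the genotypes overlapped. Its log2 response to IAA was -0.81 in Col (adjusted p = 0.002 in limma) and -0.70 in arf19-1 (adjusted p = 0.0076 in limma). In nph4-1 the response was 0.15 and in the double mutant 0.04, neither of which passed. The difference with IAA thus came with a fall in Col rather than a rise in the double mutant. CML38 lay at the floor on 2 of 3 Col arrays with IAA and on all Col and double-mutant arrays without it, and its call ended in 24 of 32 alternatives, with an adjusted p of 0.25 without double-mutant IAA 3. The call of AT4G17670 ended without Col IAA 3 (0.61, adjusted p = 0.087) or double-mutant IAA 3 (0.59, adjusted p = 0.099).

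The 2 that were lower with IAA, named after their values were seen, were AT1G26270 (log2 -0.62, SE 0.11, adjusted p = 0.00026 in limma) and AT5G26200 (-0.54, SE 0.18, adjusted p = 0.033 in limma). The call of AT5G26200 ended in 7 alternatives, among them each omission of a double-mutant IAA array and those of Col IAA 1 (-0.35, adjusted p = 0.19) and Col IAA 3 (-0.50, adjusted p = 0.11). The count of higher transcripts was 2 without Col IAA 3 or double-mutant IAA 3 and 9 without Col IAA 2. It was 7 without Col control 3 and nph4-1 IAA 1, 2 arrays outside this comparison that enter through the shared estimate of the spread. The count of lower ones was 1 without Col IAA 1 or without double-mutant IAA 2 or 3. In nph4-1 against Col with IAA 4 of the 22 were higher and 2 lower, where 8.35% and 5.68% of all probe sets were, and the median was 0.32. There 7 had an unadjusted p under 0.05 in limma, where 26% of all did. Without nph4-1 IAA 1 the higher ones were 1, and without Col IAA 1, Col IAA 3 or nph4-1 IAA 3 they were 2. In arf19-1 against Col with IAA 0 of the 22 passed in limma, where 1.56% of all probe sets did, and 2 had an unadjusted p under 0.05, where 13.9% of all did, with a median of 0.14. Without Col IAA 3, 1 of the 22 was lower in arf19-1.

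Without IAA, 3 of the 22 were higher in the double mutant than in Col, 3 were lower and 16 did not pass, against 7.03% higher and 6.27% lower among all probe sets, with a median of 0.27. In limma 9 of the 22 had an unadjusted p under 0.05, where 29.2% of all did. The 3 higher, likewise named after their values were seen, were AT3G03270 (log2 0.75, SE 0.23, adjusted p = 0.036), AT3G27220 (0.64, SE 0.20, adjusted p = 0.038) and AT5G44730 (0.40, SE 0.11, adjusted p = 0.023), all from limma. The 3 lower were AT4G39675 (-1.30, SE 0.21, adjusted p = 0.00021), AT5G26200 (-0.57, SE 0.18, adjusted p = 0.036) and AT2G15880 (-0.56, SE 0.14, adjusted p = 0.011), also from limma. The count of higher transcripts was 0 without Col control 1 or double-mutant control 3. The count of lower ones was 1 without Col control 3 or double-mutant control 2.

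**Figure D5:**
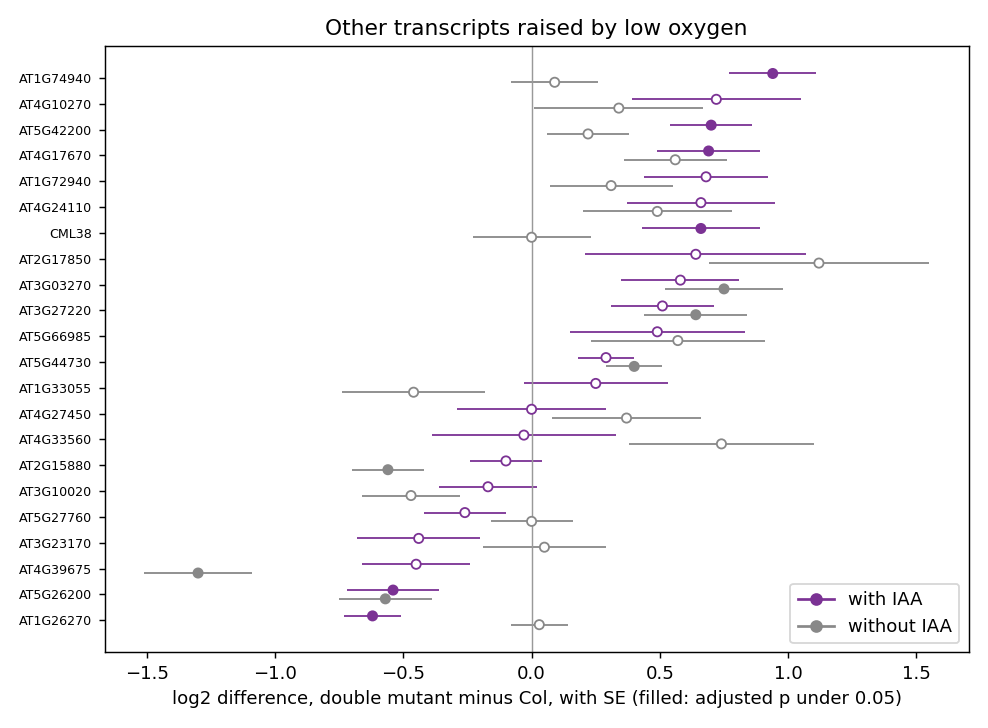
Log2 difference between the double mutant and Col for the 22 other tested transcripts raised by low oxygen, with IAA (purple) and without it (grey), with the SE as a line; filled circles have an adjusted p under 0.05. With IAA the values run from -0.62 for AT1G26270 to 0.94 for AT1G74940. Without IAA they run from -1.30 for AT4G39675 to 1.12 for AT2G17850.

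Of 18 genes of fermentation and pyruvate use beside PDC2, 4 had a named probe set, and with IAA 1 was higher in the double mutant than in Col and 3 did not pass, beside 10.6% higher and 9.37% lower among all probe sets. ALDH2C4, an aldehyde dehydrogenase of phenolic acid synthesis, was higher by 0.31 in log2 (SE 0.10, adjusted p = 0.024 in limma), from 10.93, 11.18 and 10.70 in Col to 11.22, 11.27 and 11.26. Without IAA the difference was the same, 0.31 (SE 0.10, adjusted p = 0.035 in limma). The call with IAA ended without Col IAA 3 (0.19, adjusted p = 0.19), Col IAA 1 (0.31, adjusted p = 0.055) and double-mutant IAA 2 (0.30, adjusted p = 0.076) or 3 (0.31, adjusted p = 0.071). The lactate dehydrogenase gene AT4G17260 had a log2 difference of 0.47 (SE 0.24, adjusted p = 0.2), ACS, the acetyl-CoA synthetase, 0.26 (SE 0.10, adjusted p = 0.072), and MAB1, a subunit of mitochondrial pyruvate dehydrogenase, -0.01 (SE 0.06, adjusted p = 0.97), all from limma. The median of the 4 was 0.29, beside 0.00 over all probe sets. The other pyruvate decarboxylases and alcohol dehydrogenase were not analysed here, so PDC2 cannot be set beside them.

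Of 17 genes of oxygen sensing and its transcription factors 1 had a named probe set, AT3G10040, which encodes a repressor of the ERF factor RAP2.12, with a log2 difference of 0.24 (SE 0.25, adjusted p = 0.57 in limma) with IAA and -0.47 (SE 0.25, adjusted p = 0.22 in limma) without it. Of 35 genes of sucrose entry and glycolysis 7 had a named probe set and 6 were tested, and with IAA 0 passed in limma and 0 had an unadjusted p under 0.05, where 19.9% and 31% of all probe sets did. The largest were the enolase ENOC at 0.17 (SE 0.09, adjusted p = 0.17 in limma) and AT5G56350 at -0.14 (SE 0.10, adjusted p = 0.34 in limma), with a median of 0.01. Without IAA 1 of the 6 was higher, where 7.03% of all probe sets were, namely TPI, the triosephosphate isomerase of the cytosol, at 0.22 (SE 0.05, adjusted p = 0.0073 in limma), a gene named after its value was seen.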

How the data were processed

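The authors deposited 1 table of log2 signal for 22810 probe sets and 24 arrays. How they summarised and scaled it is not given in the sources used here; the lowest value in the deposited log2 table is a floor of 50 in linear units. Per the labels, newer tables took the place of those first released for Col control 2 and 3. Names came from the platform annotation (13513 probe sets with 1 gene, 503 with several, 8794 not listed), of which 13436 were found in the RefSeq gene table (TAIR10.1), used for names only.

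After 64 control probe sets and 6989 at the floor on all arrays were left out, 15757 were tested. A model of 8 group means over all 24 arrays was fitted in R 4.3.3 by limma 3.58.1 (lmFit, then eBayes with trend and robust), two-sided, with Benjamini-Hochberg adjustment within each comparison and a threshold of 0.05. Errors are standard errors of this fit, which pools the spread over groups. The same fit was also run on simulated data, whose outcome is not reported here. The number of arrays limits the precision.

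The members and gene lists were chosen with earlier results of these data known. Of each list up to 4 genes were named, called ones with the largest difference between the double mutant and Col with IAA first, and for each member the 5 named genes with the highest r. Lists of low-oxygen genes came from general knowledge. In 3 of 9 tested comparisons, double mutant against nph4-1 with IAA, the IAA response in nph4-1 and nph4-1 against arf19-1 without IAA, every pair of same-numbered arrays had deviations from the group means that correlated above 0.1, from 0.23 to 0.58. The numbers come from the labels; the fit reported has no pairing, and the replicate number as a block was an alternative. Alternatives were quantile normalization, equal array medians, all probe sets but the controls, a replicate block, eBayes without trend or robust, array quality weights, fitting the compared arrays alone, a filter on dim probe sets and leaving out each array. Leaving out Col control 3 and nph4-1 IAA 1 together was added after seeing the data, as was running the alternatives on the described values and the gene lists. Promoter and protein sequences were not used here.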

Additional observations from a re-analysis of the deposited data

How the results depend on the processing

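Of 18 tested results of PDC2 and AT1G19530, 8 kept their direction and their side of the threshold in all 32 alternatives set out in the methods, the added one aside, and of 18 described values 17 moved by less than the residual SD of the fit (0.41 for PDC2 and 0.46 for AT1G19530), a tolerance wide enough to hold a turned sign of small values: the difference in IAA response between the double mutant and Col ran from -0.36 to 0.23 for AT1G19530 and from -0.68 to 0.01 for PDC2, and the response of PDC2 in Col from 0.29 to 0.97. The replicate block changed 0 calls (PDC2, double mutant minus Col with IAA, 1.01, adjusted p = 0.017 in limma). In 6 comparisons not every pair of same-numbered arrays correlated above 0.1. Whether the numbers mark shared preparation there is not known, and the block says nothing more. The calls of both genes named in the report as ended by leaving out an array held otherwise, except with all probe sets but the controls tested (PDC2 1.01, adjusted p = 0.057; AT1G19530 against nph4-1 -1.45, adjusted p = 0.063) and, for the latter, when the compared arrays were fitted alone (-1.45, adjusted p = 0.12) and without Col control 3 and nph4-1 IAA 1 (-1.11, adjusted p = 0.12).

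Over the omissions of 1 array, PDC2 in the double mutant with IAA ran from 0.77 to 1.27 against Col, 0.54 to 1.17 against nph4-1 and 0.73 to 0.86 against arf19-1, and AT1G19530 from -1.69 to -1.11 against nph4-1. For PDC2 nph4-1 minus Col with IAA ran from -0.17 to 0.46, arf19-1 minus Col with IAA from -0.02 to 0.48, and the IAA response from -0.63 to 0.00 in nph4-1 and from -0.09 to 0.11 in arf19-1, so the signs of these values, none of them called, are not settled. For PDC2, single omissions turned a sign to -0.17 or -0.09 for nph4-1 minus Col with IAA and to -0.02 for arf19-1 minus Col with IAA. They turned its IAA response to 0.00 after rounding in nph4-1 and to 0.02, 0.05 or 0.11 in arf19-1.

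Array quality weights made calls of the IAA response of AT1G19530 in arf19-1 (0.58), of its difference between nph4-1 and arf19-1 without IAA (-0.80), and of PDC2 in the double mutant against arf19-1 (0.78) and nph4-1 (0.60) with IAA. They turned the IAA response of PDC2 to 0.05 in nph4-1 and 0.18 in arf19-1, and moved its non-additivity without IAA to -0.20. Quantile normalization gave 0.00 for the response in arf19-1. PDC2 against arf19-1 was also called in the fit of the arrays compared (0.79) and without Col control 3 and nph4-1 IAA 1 (0.79), which gave 0.00 for the IAA response in nph4-1. The cause was not tested.

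With IAA, the number of other low-oxygen transcripts higher in the double mutant ran from 2 to 9 over single omissions and was 7 without both arrays, and that of lower ones from 1 to 2, with 1 when all probe sets or only the arrays compared were tested and 5 with array quality weights. Without IAA the higher ones ran from 0 to 4, with 1 when all probe sets and 0 when only the arrays compared were tested, and the lower ones from 1 to 3, with 1 in the fit of the arrays compared and 1 without both arrays. In nph4-1 against Col with IAA the higher ones ran from 1 to 5 and were 1 with array quality weights, 1 in the fit of the compared arrays and 1 without both arrays, and the lower ones ran from 2 to 3, with 4 and 1 under the first and second of these. In arf19-1 the lower ones ran from 0 to 1. A signal near the floor limits AT1G19530 in the double mutant.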
